A study of Rattus norvegicus with 119 samples.

Results

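The genes described here are 8 iron transport and storage genes of the rat hippocampus: Tfrc, Slc11a2, Tf, Slc40a1, Cp, Fth1, Ireb2 and Aco1. They were taken as every probe set whose only gene symbol in the array's annotation was one of these names. This gave 8 of the 14506 genes named by exactly 1 symbol, measured by 9 probe sets. Fth1 had 2 (10713825 and 10840605), whose values correlated at r = 0.99 over all arrays and are therefore not independent. The other probe sets were 10754785 for Tfrc, 10907243 for Slc11a2, 10919637 for Tf, 10927780 for Slc40a1, 10814430 for Cp, 10910094 for Ireb2 and 10868255 for Aco1.

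Total RNA of the hippocampus was measured in 40 Fischer, 40 Long Evans and 39 Sprague Dawley rats of both sexes, 1 Affymetrix array per rat. Fischer rats are an inbred strain, and Long Evans and Sprague Dawley rats are outbred stocks. Controls ate control chow. Exposed animals ate chow with lead acetate at 250 or 750 ppm, either perinatally (dams from 10 days before breeding, pups up to weaning) or postnatally (birth to postnatal day 45), and control chow afterwards. All tissue was taken on postnatal day 55, when every exposed animal had been moved to control chow. Of 30 groups, 29 held 4 animals, and the Sprague Dawley male controls were 3. The labels do not name litters, so the p-values measure the spread between these animals, some of which may be siblings.

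Cells take up iron mainly as transferrin (Tf) bound to the transferrin receptor (Tfrc), and the divalent metal carrier Slc11a2 moves it out of the endosome. Slc11a2 also carries other divalent metals and is one of the proteins known to take up lead. Ferritin, whose heavy chain is Fth1, stores iron, ferroportin (Slc40a1) exports it, and the ferroxidase ceruloplasmin (Cp) oxidizes it as it leaves the cell. The iron regulatory proteins Aco1 and Ireb2 bind iron-responsive elements in mRNAs: in iron-poor cells they stabilize Tfrc mRNA and block translation of ferritin. Ferritin is thus regulated largely at translation, which an array of mRNA does not measure. In the brain, transferrin mRNA is known from oligodendrocytes and the choroid plexus.

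Promoter windows of 3 genes, Tfrc, Tf and Slc40a1, are shown. These genes were higher in Fischer arrays with upper label numbers, a split described further on that called 60.9% of all probe sets. So were Slc11a2, Ireb2 and Aco1, whose windows held no match to TGCNCNC. The windows shown are the 3 of 8 that hold such a match. They are the 250 bases before the start, 5′ to 3′ on the gene's strand, from RefSeq on GRCr8: chr11:81690319-81690568 for Tfrc, chr8:112695377-112695626 for Tf and chr9:55543461-55543710 for Slc40a1, all on the minus strand. Capitals mark matches, on either strand, to the hypoxia-response cores ACGTG and GCGTG and to TGCNCNC. This last pattern is looser than the metal-response core TGCRCNC, where R is A or G.
Tfrc: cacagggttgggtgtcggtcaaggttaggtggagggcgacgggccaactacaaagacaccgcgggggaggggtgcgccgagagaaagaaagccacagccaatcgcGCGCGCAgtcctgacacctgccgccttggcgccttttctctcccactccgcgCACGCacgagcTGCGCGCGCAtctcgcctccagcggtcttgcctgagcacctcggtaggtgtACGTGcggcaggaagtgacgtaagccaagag
Tf: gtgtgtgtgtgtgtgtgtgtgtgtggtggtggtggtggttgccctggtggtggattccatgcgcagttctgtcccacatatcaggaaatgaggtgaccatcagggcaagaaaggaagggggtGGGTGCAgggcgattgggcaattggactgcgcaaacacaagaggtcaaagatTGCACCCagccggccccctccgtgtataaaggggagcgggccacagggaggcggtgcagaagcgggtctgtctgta
Slc40a1: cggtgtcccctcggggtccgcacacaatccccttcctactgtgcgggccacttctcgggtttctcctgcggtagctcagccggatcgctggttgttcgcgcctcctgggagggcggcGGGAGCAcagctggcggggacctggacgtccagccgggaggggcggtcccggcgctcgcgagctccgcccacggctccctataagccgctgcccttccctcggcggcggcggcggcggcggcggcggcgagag
The Tfrc window held ACGTG at positions -31 to -27 from the start, GCGTG once and TGCNCNC 3 times, with the last 2 of these overlapping. The Tf window held TGCNCNC 2 times and the Slc40a1 window once. The Slc40a1 match has T where the metal-response core has A or G, so it does not meet that core. Of 8 windows of 7 of the genes, ACGTG stood in 1, GCGTG in 3 and TGCNCNC in 3. Among all 33469 windows of this length, 16.6% held ACGTG, 25.9% held GCGTG and 43.4% held TGCNCNC, so these matches are common and describe letters, not binding.

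The deposited values are log2 intensities, and all differences below are differences of log2. The principal-neuron markers Camk2a (13.12 to 13.39) and Slc17a7 (12.72 to 12.96) varied little between arrays. The choroid plexus list, 16 genes led by Ttr and Folr1, was uneven: its mean ran from 6.73 to 10.34 over arrays, and Ttr itself from 8.02 to 13.77. In all, 8 arrays went against their sex label by the X-linked genes Eif2s3, Ddx3x and Pbdc1, 3 of them Long Evans controls. They were kept under their labels. For the 8 iron genes, changes without them are given for mean lead effects, strain contrasts and the planned marker-list relations that were called. For single exposed groups, dose, period, sex and differences of the lead effect, only the number of calls was recorded without them. Other comparisons, among them those with a meninges list, were not refitted without them. The titles also end in a number, whose meaning the labels do not give. In each group of 4 the numbers are successive, and the 2 lower and 2 upper ones are called lower and upper arrays here. The Sprague Dawley male controls, which skip a number, have 1 lower and 2 upper arrays. Every group has its own run of numbers, so whatever goes with these runs cannot be told apart from strain, sex or exposure. In Long Evans, all controls stand in 1 run, which only the females after perinatal 750 ppm continue, and the other exposed groups have numbers far from it.

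**Figure D1:**
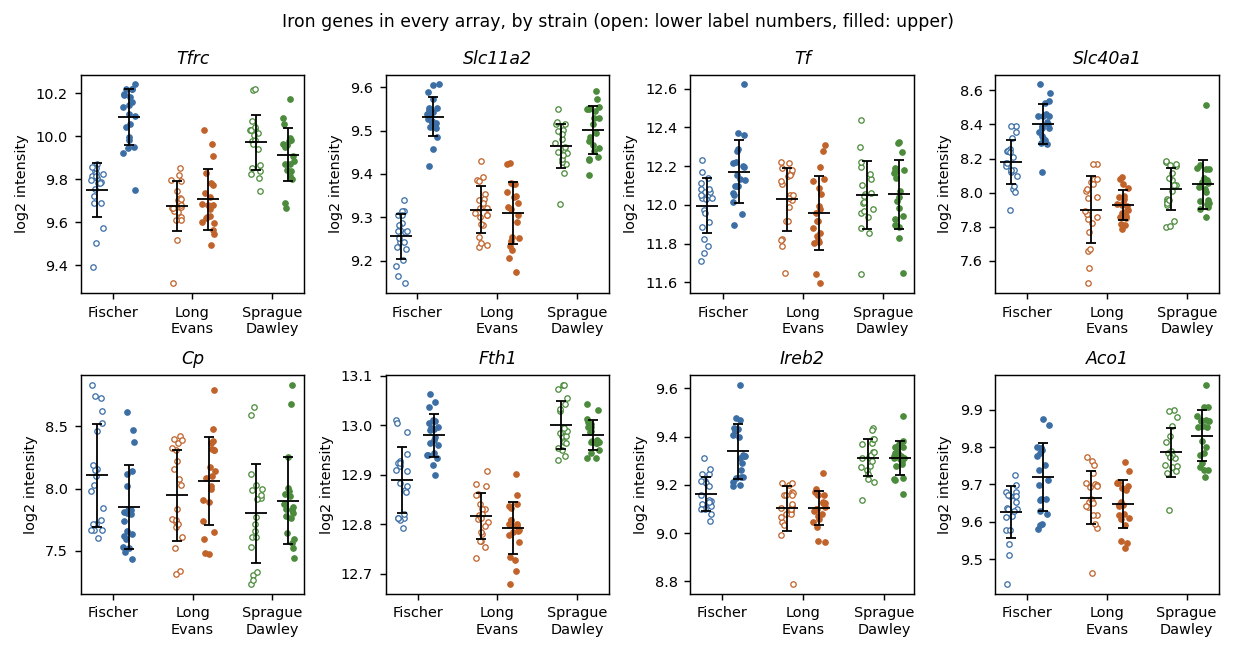
Log2 intensity of the 8 genes in each array, by strain (Fth1 as probe set 10713825). Open points are arrays with lower label numbers, filled points those with upper ones, and bars are means with SD. Fth1 of all 40 Long Evans arrays lies below all 39 Sprague Dawley arrays, and Slc11a2 of Fischer falls into separate lower and upper sets. The share of all probe sets that part in these ways was not counted.

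Over the 10 groups of a strain, means of most genes stayed within a narrow band. Slc11a2 group means ran from 9.34 to 9.43 in Fischer, from 9.26 to 9.37 in Long Evans and from 9.45 to 9.52 in Sprague Dawley. In Fischer this band was narrower than the median SD within a group, 0.169. Tfrc group means ran from 9.74 to 10.03, from 9.61 to 9.81 and from 9.83 to 10.06 in the same order of strains.

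Tf means lay between 11.998 and 12.2 in Fischer, 11.85 and 12.1 in Long Evans, and 11.88 and 12.22 in Sprague Dawley. Slc40a1 means lay between 8.16 and 8.42, 7.84 and 7.98, and 7.94 and 8.15. Cp had the widest bands, from 7.65 in females after postnatal 250 ppm to 8.21 in female controls in Fischer, and from 7.65 in males to 8.35 in females after perinatal 750 ppm in Long Evans. In Sprague Dawley it ran from 7.56 in females after perinatal 750 ppm to 8.13 in male controls.

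Fth1 means (probe set 10713825) lay between 12.9 and 12.98 in Fischer, 12.75 and 12.86 in Long Evans, and 12.97 and 13.05 in Sprague Dawley. Ireb2 means lay between 9.19 and 9.35, 8.99 and 9.16, and 9.25 and 9.37. Aco1 means lay between 9.57 and 9.73 in Fischer and in Long Evans, and between 9.73 and 9.87 in Sprague Dawley. Every Long Evans group mean of Fth1, Ireb2, Slc11a2 and Tfrc was thus below every Sprague Dawley one. The share of all probe sets that do so was not counted.

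No iron gene passed the test for lead. Each exposed group was compared with the controls of its strain and sex (limma, Benjamini-Hochberg adjustment over all 29214 probe sets, called at an adjusted p under 0.05), which gives 72 tests of the 9 probe sets in each strain. None was called in Fischer, Long Evans or Sprague Dawley, where unadjusted p-values under 0.05 numbered 1, 12 and 4. Such p-values numbered 7019, 13949 and 7420 of 233712 tests per strain over all probe sets. Over all probe sets the same contrasts called 0.00214% of tests in Fischer, 0.0424% in Long Evans and 0.00813% in Sprague Dawley. The 4 contrasts of a strain and sex share their controls.

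Averaged over the 8 exposed groups of a strain, the mean lead effect called 0% of probe sets in Fischer, 0.212% in Long Evans and 0.0171% in Sprague Dawley, and no iron gene. The median effect over the 9 probe sets was -0.01 in Fischer, 0.054 in Long Evans and 0.012 in Sprague Dawley, against medians of -0.004, 0.001 and -0.004 over all probe sets. In Long Evans all 9 estimates were above 0, with Fth1 counted by both its probe sets and Slc40a1 at 0.001. Without the controls that went against their sex label, Slc40a1 was -0.064 and Tf -0.002. After a further quantile normalization Slc40a1 was -0.011. The share of all probe sets above 0 was not counted. An unadjusted p under 0.05 was found for 3 of the 9 estimates, against 2177 of all 29214 probe sets. The 3 were Aco1 and both Fth1 probe sets. Lead and number run cannot be told apart in these means. In the females after perinatal 750 ppm, whose numbers continue those of the controls, the difference was 0.06 ± 0.045 for Aco1 and 0.101 ± 0.039 for Fth1 probe set 10713825, neither called.

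Aco1, the cytosolic aconitase that turns into iron regulatory protein when it loses its iron-sulfur cluster, had the smallest p. The 8 Long Evans controls ran from 9.46 through a median of 9.61 to 9.65, and the 32 exposed animals from 9.54 through 9.69 to 9.77. The exposed animals sat higher on average, but the ranges overlapped. The mean lead effect was 0.09 ± 0.025 (SE, 95% interval 0.039 to 0.142; unadjusted p = 0.00113, adjusted p = 0.161 by limma). With the mismatched Long Evans arrays, all of them controls, left out it was 0.102 (adjusted p = 0.334). Among the male groups the differences from control were 0.061 and 0.101 after perinatal 250 and 750 ppm, and 0.132 and 0.128 after postnatal 250 and 750 ppm. Among the female groups they were 0.129, 0.06, 0.038 and 0.074 in the same order. In single animals, the male controls were at 9.65, 9.46, 9.53 and 9.62 and the males after postnatal 750 ppm at 9.7, 9.7, 9.69 and 9.7. Every one of these exposed males was above every male control. This is 1 group picked from the 8 exposed ones, and how many of all probe sets part in this way was not counted. The array of male control 4 went against its sex label. The estimate for Aco1 was 0.067 ± 0.031 in Sprague Dawley (adjusted p = 0.999) and -0.018 ± 0.036 in Fischer (adjusted p = 1). The astrocyte list (10 genes, Gfap and Aqp4 first) lay 0.04 above control on average in Long Evans, from 0.01 to 0.079 over the exposed groups, 0.004 above in Sprague Dawley and at -0.02 in Fischer. Its part in the Aco1 values was not tested.

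Fth1, the ferritin heavy chain, ran in Long Evans from 12.71 through 12.76 to 12.81 in controls and from 12.68 through 12.81 to 12.91 in exposed animals (probe set 10713825). The ranges overlapped. The mean lead effect was 0.054 ± 0.022 (adjusted p = 0.515), and 0.055 ± 0.023 (adjusted p = 0.578) for the other probe set. Beside these values, the mature oligodendrocyte list (13 genes led by Mbp and Mag) was 0.175 higher in Long Evans exposed groups than in their controls on average, with differences of 0.059 to 0.267. Its controls lay between 10.71 and 10.82 and its exposed arrays between 10.73 and 11.18. In bulk tissue, more cells of a type and more RNA per cell cannot be told apart, and the part of this list in the Long Evans values was not tested.

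For the uptake genes the lead estimates were small and of either sign. Slc11a2 gave -0.01 ± 0.064 in Fischer, 0.042 ± 0.026 in Long Evans and -0.006 ± 0.028 in Sprague Dawley. Tfrc gave 0.013 ± 0.082, 0.067 ± 0.052 and -0.077 ± 0.05 in the same order. The 95% interval for Slc11a2 ran from -0.14 to 0.121 in Fischer, from -0.011 to 0.095 in Long Evans and from -0.063 to 0.051 in Sprague Dawley. The Fischer fit held no term for lower and upper arrays, so the split between them described below counts in its error. For the sex contrast of Slc11a2 in Fischer, the SE was 0.0513 without such a term and 0.0174 with it.

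Transferrin, ferroportin and Ireb2 were not called either. Tf gave -0.066 ± 0.072 in Fischer, 0.04 ± 0.069 in Long Evans and 0.012 ± 0.0715 in Sprague Dawley. Slc40a1, the only known cellular iron exporter, gave 0.003 ± 0.064, 0.001 ± 0.063 and 0.075 ± 0.057. With the mismatched arrays left out, the Long Evans values turned to -0.002 for Tf and -0.064 for Slc40a1. Ireb2, the other iron regulatory protein, gave -0.026 ± 0.054, 0.023 ± 0.033 and 0.004 ± 0.033, the last at -0.018 with those arrays left out. Adjusted p-values of these 3 genes were 0.971 or more in every strain.

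Cp had the widest spread. Fischer controls ran from 7.67 through 8.24 to 8.83 and exposed Fischer animals from 7.44 through 7.82 to 8.74, a mean lead effect of -0.251 ± 0.147 (adjusted p = 1). In Long Evans it was 0.171 ± 0.124 and in Sprague Dawley -0.059 ± 0.157. Controls and exposed animals overlapped in all 3 strains. The meninges list (10 genes led by Dcn and Lum) moved by -0.172, 0.128 and -0.011 in the same strains, beside the Cp values. Its part in them was not tested.

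**Figure D2:**
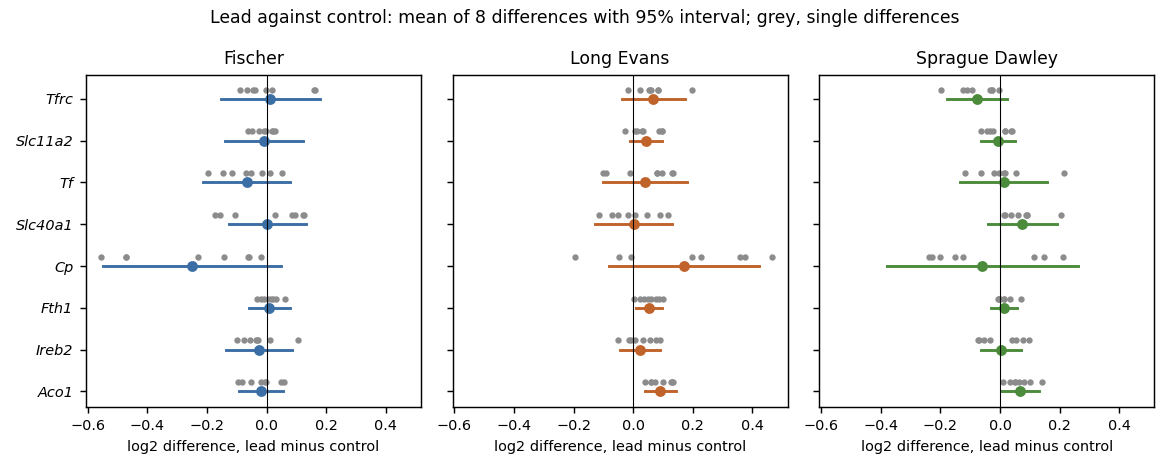
Lead minus control on the log2 scale, by strain. Coloured points are the mean of the 8 differences with its 95% interval, grey points the single exposed groups, which share controls within a sex. Aco1 in Long Evans has its interval from 0.039 upwards, and no gene passed the adjusted threshold.

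Dose, period and sex were compared next. The dose contrast (750 minus 250 ppm, no controls) called no iron gene in any strain, against 0.0434% of all tests. Its unadjusted p was under 0.05 for Tf (-0.141 ± 0.062) and Fth1 probe set 10840605 (0.048 ± 0.021) in Long Evans, both at an adjusted p of 0.633, and for Tfrc in Sprague Dawley (0.109 ± 0.042, adjusted p = 1). Such a p was found in 4602 of 87642 tests over all probe sets and strains. The period contrast (perinatal minus postnatal) called none, against 0.0365%. No iron gene had an unadjusted p under 0.05, against 6015 of all 87642 tests. Estimates ran from -0.097 ± 0.111 for Cp in Long Evans to 0.117 ± 0.06 for Tf in Sprague Dawley.

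The difference of the lead effect between females and males called none, against 0.00114%. None had an unadjusted p under 0.05, against 2333 of all 87642 tests. The difference of the lead effect between strains called none, against 0.073%. Aco1 in Long Evans against Fischer was at 0.109 ± 0.041 (adjusted p = 0.762), and Cp at 0.423 ± 0.204 (adjusted p = 1). Unadjusted p-values were under 0.05 for these 2 and for Aco1 in Sprague Dawley against Fischer (0.085 ± 0.042). Over all probe sets they were so in 3392 of 87642 tests. The lead effect was not shown to differ between strains for any iron gene.

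Females and males differed for no iron gene in the fit without label numbers, against 0.0616% of all tests, and 2 unadjusted p-values were under 0.05 (Tfrc and Aco1 in Fischer). Over all probe sets and strains, 9461 of 87642 tests had such a p. In Fischer, Tfrc averaged 9.84 in females and 9.99 in males, a difference of -0.15 ± 0.066 (adjusted p = 0.677). With the label-number sets as a block the same difference had an SE of 0.029 and an adjusted p of 0.0107. None of the 8 arrays that went against their sex label was a Fischer array.

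The strains differed in most iron genes, as did most of the array. In the fit of all arrays, Long Evans was below Sprague Dawley in 7 of 9 probe sets and above in none, where 62.2% of all probe sets were called. Long Evans was below Fischer in 7 and above in none (61.2% of all called). Sprague Dawley was above Fischer in 5 and below in 1 (40.7% called). With control animals only, 6, 6 and 1 probe sets were called, against 24.5%, 25.1% and 10.5% of all. By direction, 34.4% of all probe sets were lower in Long Evans than in Sprague Dawley, 33.4% lower in Long Evans than in Fischer and 19.8% higher in Sprague Dawley than in Fischer. The median over the 9 probe sets was -0.17, -0.131 and 0.055, against -0.019, -0.014 and 0.005 over all. Leaving out replicate 2 of every group left 2 calls of Sprague Dawley against Fischer in place of 6. The share of all probe sets called in that fit was not recorded.

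Fth1 separated Long Evans from Sprague Dawley completely. The 40 Long Evans arrays ran from 12.68 through a median of 12.8 to 12.91, and the 39 Sprague Dawley arrays from 12.93 through 12.99 to 13.08 (probe set 10713825). No array of one strain reached the range of the other, and the second probe set behaved alike. How many of all probe sets part the 2 strains in this way was not counted, and 62.2% of all were called in this contrast. For Fth1 the difference was -0.186 ± 0.014 (adjusted p = 4.24e-22). It was -0.183 among lower and -0.189 among upper label numbers, and -0.218 ± 0.031 in controls only (adjusted p = 5.76e-08). Fischer lay between, from 12.79 to 13.06, and overlapped both. Strain accounted for 66.7% of the variance of Fth1, and for 67.9% with the other probe set.

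The same order of Long Evans below Sprague Dawley held for uptake and for both regulators. Tfrc was 9.69 ± 0.13 (SD, n = 40) in Long Evans and 9.94 ± 0.13 (n = 39) in Sprague Dawley, a difference of -0.255 ± 0.036 (adjusted p = 2.22e-09). It was -0.299 among lower and -0.208 among upper label numbers. Slc11a2 was 9.31 ± 0.063 and 9.48 ± 0.055, a difference of -0.17 ± 0.024 (adjusted p = 2.97e-09), and -0.15 and -0.191 in the label sets.

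Ireb2 was 9.1 ± 0.082 in Long Evans and 9.31 ± 0.072 in Sprague Dawley (-0.211 ± 0.023, adjusted p = 1.8e-13), and -0.216 and -0.208 in the lower and upper sets. Aco1 was 9.66 ± 0.068 and 9.81 ± 0.07 (-0.152 ± 0.017, adjusted p = 1.68e-13), and -0.119 and -0.183 in the sets. All 4 genes were also called in control animals only. Ranges of the 2 strains overlapped in each of them.

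Ferroportin had another order, with Fischer highest. Slc40a1 ran from 7.9 through 8.31 to 8.635 in Fischer, from 7.47 through 7.92 to 8.17 in Long Evans and from 7.8 through 8.04 to 8.52 in Sprague Dawley. Long Evans was lower than Fischer by -0.379 ± 0.035 (adjusted p = 5.87e-17), -0.28 among lower and -0.477 among upper label numbers. The upper arrays of these strains did not overlap, and how many of all probe sets part in this way was not counted. Sprague Dawley was lower than Fischer by -0.258 ± 0.035 (adjusted p = 1.19e-09), -0.161 and -0.356 in the sets. Long Evans was below Sprague Dawley by -0.121 ± 0.035 (adjusted p = 0.00186), at adjusted p = 0.0513 among lower label numbers and -0.061 ± 0.081 (adjusted p = 0.619) in controls only.

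Tf and Cp, the secreted proteins, varied least by strain. Tf was 12.08 ± 0.18 in Fischer, 11.995 ± 0.18 in Long Evans and 12.05 ± 0.17 in Sprague Dawley (SD). Only Long Evans against Fischer was called (-0.089 ± 0.04, adjusted p = 0.0472), and it was not called in controls only (-0.174), with the mismatched arrays left out (-0.081) or after a further quantile normalization (-0.075, adjusted p = 0.0984). Cp was 7.98 ± 0.4, 8.01 ± 0.36 and 7.85 ± 0.37 and was called in no strain contrast. With array weights, Cp was 0.179 higher in Long Evans than in Sprague Dawley (adjusted p = 0.0225). Strain took 4.3% of the variance of Tf and 3.1% of that of Cp. After strain, group and the label set of each strain, 67.9% and 67.8% were left.

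Cell type lists also differed between strains. The microglia list (9 genes, Aif1 and Cx3cr1 first) averaged 8.83 ± 0.072 (SD) in Long Evans, 9.02 ± 0.054 in Fischer and 9.05 ± 0.053 in Sprague Dawley. The astrocyte list averaged 11.03, 11.11 and 11.12 in the same order, and the principal-neuron list 11.96, 11.92 and 11.81. The part of these lists in the strain differences of the iron genes was not tested.

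**Figure D3:**
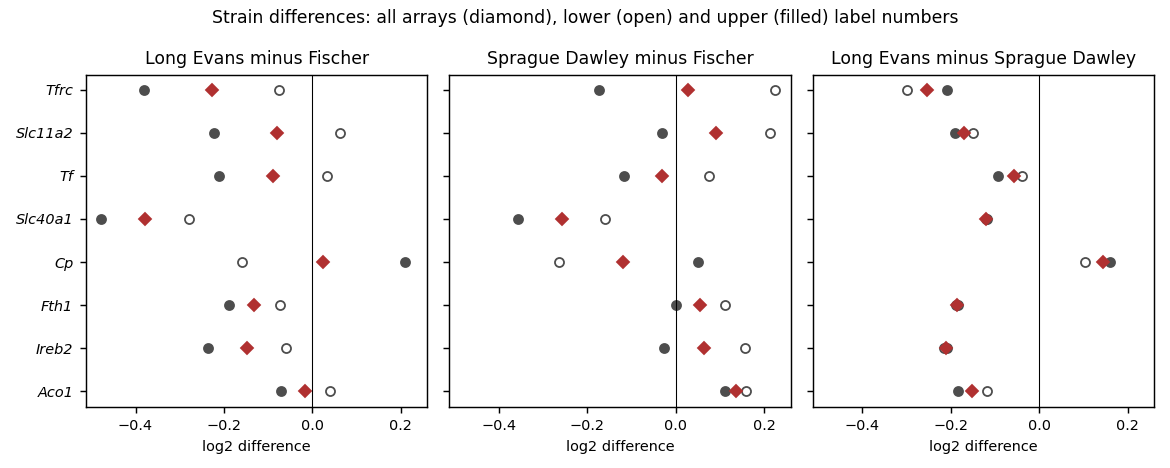
Strain differences of the 8 genes on the log2 scale, from all arrays (diamonds), lower label numbers (open) and upper label numbers (filled). In Long Evans minus Sprague Dawley both sets fall together, while in the contrasts with Fischer they part, with Slc11a2 and Tf on either side of 0.

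The contrasts with Fischer depended on which Fischer arrays were taken. In Fischer, upper arrays were above lower ones in 8 of 9 probe sets and below in Cp, where 60.9% of all probe sets were called, 18.6% as higher. In Long Evans and Sprague Dawley no iron gene was called, against 0.0993% and 18.9%. Unadjusted p-values under 0.05 numbered 0 and 1 there, against 2793 and 8916 of all 29214 probe sets.

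Slc11a2 showed the split best. The 20 lower Fischer arrays ran from 9.15 to 9.34 and the 20 upper ones from 9.42 to 9.61, with no overlap. How many of all probe sets split without overlap was not counted. In the male controls the lower animals were at 9.24 and 9.29 and the upper at 9.54 and 9.54. In males after postnatal 250 ppm they were at 9.23 and 9.16 against 9.52 and 9.46. The 2 sets did not overlap in controls or in exposed animals, and the difference was 0.276 ± 0.017 (adjusted p = 5.05e-15). The set took 45.8% of the variance of Slc11a2 over all arrays, more than the 33.5% of strain.

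Tfrc rose by 0.338 ± 0.029 from lower to upper Fischer arrays (adjusted p = 7.49e-12), Slc40a1 by 0.224 ± 0.033 (5.49e-07), Ireb2 by 0.177 ± 0.03 (6.59e-06) and Tf by 0.176 ± 0.049 (0.00226). Aco1 rose by 0.093 ± 0.023 (adjusted p = 0.000661) and Fth1 by 0.089 ± 0.021 (0.00042). Cp was at -0.257 ± 0.11 (adjusted p = 0.0437, and 0.146 after a further quantile normalization), beside a meninges list that averaged 8.83 in lower and 8.45 in upper Fischer arrays. The split differed from that of Long Evans for 8 probe sets, where 43.3% of all were called, and from that of Sprague Dawley for 7, where 55.3% were called. The astrocyte list split in Fischer as well, from 10.97 to 11.07 in lower and from 11.12 to 11.24 in upper arrays, without overlap. The endothelium list averaged 9.01 and 8.9, and the microglia list 9.04 and 8.99. The part of these lists in the split of the iron genes was not tested.

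As a result, several contrasts with Fischer changed direction between the sets. Sprague Dawley minus Fischer for Tfrc was 0.225 among lower arrays (adjusted p = 2.78e-05) and -0.173 among upper ones (adjusted p = 0.000345). Long Evans minus Fischer for Slc11a2 was 0.062 among lower arrays (adjusted p = 0.00551) and -0.222 among upper ones (adjusted p = 1.63e-12). Aco1, not called between Long Evans and Fischer over all arrays, was at -0.072 among upper arrays (adjusted p = 0.00586) and at -0.104 in controls only (adjusted p = 0.0277), against 0.039 among lower arrays. For Slc40a1 and Fth1, Long Evans was below Fischer in both sets.

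Within strains, transferrin followed the choroid plexus. Residuals from group means and label set were correlated with the mean of each marker list, in 108 planned relations adjusted together by permutation within groups. Tf against the choroid plexus list gave Pearson r = 0.786 in Fischer (rho = 0.764), 0.838 in Long Evans (rho = 0.853) and 0.866 in Sprague Dawley (rho = 0.895). The permutation p was 1e-05, the smallest that 100000 shuffles can give, and the adjusted p 0.00027. Without the 2 arrays farthest from the median, r was 0.747, 0.858 and 0.85. Tf also followed the oligodendrocyte list, with r = 0.571, 0.558 and 0.527 (permutation, adjusted p = 0.0432 in each), or 0.427, 0.528 and 0.426 without the 2 farthest arrays, and with the Sprague Dawley value at r = 0.52 and no longer called without the arrays against their sex label. The Spearman relation held for Fischer (adjusted p = 0.0256) and missed for the others (0.137 each).

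In Sprague Dawley Tf also followed endothelium (r = 0.501, rho = 0.519, permutation adjusted p = 0.0251), which was lost at r = 0.447 with the mismatched arrays left out. It also followed the meninges list described next (r = 0.61, permutation adjusted p = 0.00148), a relation not refitted without those arrays.

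Cp followed endothelium (12 genes, Cldn5 and Pecam1 first) in Fischer (r = 0.668, rho = 0.682) and Sprague Dawley (r = 0.799, rho = 0.742), both at a permutation adjusted p of 0.00036, and at r = 0.408 in Long Evans (adjusted p = 0.105). Against the meninges list, a comparison added after the data were seen, r was 0.872, 0.89 and 0.897 in Fischer, Long Evans and Sprague Dawley (27 such relations, permutation adjusted p = 9e-05 in each strain). Slc40a1 followed endothelium in Long Evans (r = 0.747, rho = 0.673, permutation adjusted p = 0.00027), with r = 0.249 in Fischer and 0.391 in Sprague Dawley, neither called. Whether these values differ between strains was not tested. Fth1 probe set 10713825 followed oligodendrocytes in Fischer (r = 0.625, permutation adjusted p = 0.00513), with 0.167 in Long Evans and 0.405 in Sprague Dawley (adjusted p = 0.13). For probe set 10840605, r was 0.639 in Fischer (permutation adjusted p = 0.00494), 0.189 in Long Evans and 0.473 in Sprague Dawley (adjusted p = 0.0572). No iron gene was related to the red blood cell list (6 genes) at the adjusted threshold.

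**Figure D4:**
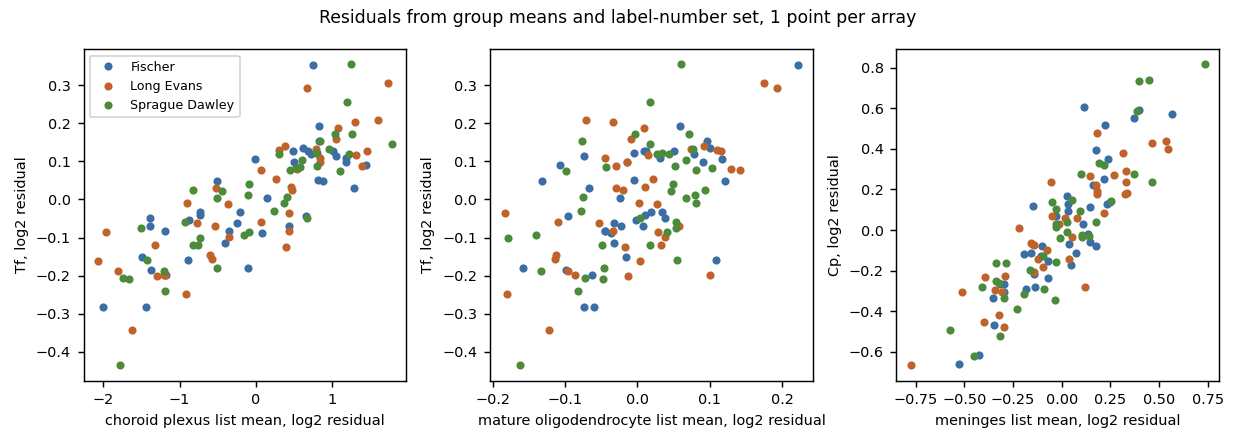
Residual log2 values of Tf against the choroid plexus and mature oligodendrocyte lists, and of Cp against the meninges list, 1 point per array and coloured by strain. Residuals are from group means and label-number set. Tf rises with the choroid plexus list in all 3 strains (r from 0.786 to 0.866).

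The probe sets most like each iron gene over the residuals of all arrays, as a description, were these. Tf was most like Car14 (r = 0.897), Slc4a2 (0.881) and Cdr2 (0.877). Cp was most like Slc6a20a (0.892), Slc6a13 (0.884) and Vim (0.878). Ireb2 was most like Ndufs1 (0.737), Spopl and Fastkd2, and Tfrc most like Zc3h14 (0.694), Mettl14 and Hspa8. Fth1 was most like 3 probe sets of Ppia (0.683 at most). Likeness was weaker for Slc40a1 (Nceh1, Cnep1r1 and Dnajb11, 0.59 at most), Aco1 (As3mt, Cfap141 and Stat3, 0.558 at most) and Slc11a2 (Erap1, Cpeb4 and Ddx46, 0.464 at most). Among the iron genes themselves, Tfrc and Ireb2 had r = 0.536, and Slc40a1 and Fth1 had -0.225.

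A longer list of 48 other iron genes, of which 39 were measured by 48 probe sets, gave 1 lead call in 384 tests per strain, in Long Evans, where 0.0424% of all tests were called. Heph, a membrane ferroxidase related to ceruloplasmin, was at 6.53, 6.71, 6.52 and 6.6 in Long Evans female controls and at 6.91, 6.89, 7.1 and 6.85 after perinatal 750 ppm. The exposed animals were all above the controls, by 0.348 ± 0.072 (adjusted p = 0.0252 by limma). Of these 4 controls, 2 went against their sex label, and they held the 2 lowest values, 6.53 and 6.52. Heph was not refitted without them. The share of all probe sets that part these 2 groups was not counted. Heph was measured at a low level: the 40 Long Evans arrays ran from 6.3 to 7.1, below the lowest array median, 7.36. No other gene of the list was called in a lead, dose, period or sex contrast.

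By strain, 31 probe sets of this list differed between Long Evans and Sprague Dawley (12 higher, 19 lower), 31 between Long Evans and Fischer (13 higher, 18 lower) and 26 between Sprague Dawley and Fischer (14 higher, 12 lower). Over all probe sets 62.2%, 61.2% and 40.7% were called in these contrasts, so most probe sets of any kind differed in the first 2. With control animals only, the calls were 6 higher and 9 lower, 6 and 6, and 2 and 3, in the same order. Over all probe sets they were then 24.5%, 25.1% and 10.5%. In Fischer, upper arrays were above lower ones in 10 probe sets of this list and below in 20, where 60.9% of all were called. The strain differences of the genes named next were not refitted within lower or upper arrays. Abcg2, a porphyrin and drug exporter, ran from 7.12 to 7.88 in Fischer and from 6.18 to 6.98 in Sprague Dawley, without overlap, a difference of -1.03 ± 0.038 (adjusted p = 3.69e-43). The share of all probe sets without overlap was not counted. Lcn2, which binds iron-carrying siderophores, ran from 6.48 to 7.77 in Sprague Dawley and from 5.82 to 6.44 in Fischer, a difference of 0.855 ± 0.055 (adjusted p = 2.93e-25). Hp, which binds free hemoglobin, was 0.451 ± 0.032 higher in Long Evans than in Fischer. Bmp2 was 0.444 ± 0.055 higher in Long Evans than in Fischer and Pcbp2, an iron chaperone, was at -0.308 ± 0.033. Slc39a8, a metal importer, was 0.389 ± 0.049 higher in Long Evans than in Sprague Dawley.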

How the data were processed

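Hippocampal RNA was measured on 1-colour arrays, 1 per rat. The deposited values were log2 intensities of 29214 probe sets, made with RMA and Partek per the submitters' processing notes (their versions and sequence, and whether batches were corrected, are not given in the sources used here), with no missing value and array medians of 7.36 to 7.57. The number of arrays limits the precision. Groups came from the labels.

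Contrasts were fitted with limma 3.58.1 (R 4.3.3), within strain for lead, dose, period and sex and over all arrays for strain, two-sided. Errors after ± are standard errors unless SD is written. Correlations used Python 3.11.15 with numpy 2.4.6, pandas 2.3.3 and scipy 1.17.1, and figures matplotlib 3.10.9. The fit was tested on simulated data.

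The members and lists were chosen with earlier results of these data known. Named genes were all members, other iron genes called in a lead, dose, period or sex contrast, the 4 largest called differences of each strain contrast, the 3 probe sets most like each member, 3 sex-check genes and the first 2 genes of each marker list. Alternatives were a further quantile normalization, probe sets above the 40th percentile, array weights, label numbers or choroid plexus as covariates, 1 fit of all arrays, dropping the arrays against their sex label, and leaving out animals. Proteins and the Fth1 promoter were not analysed here.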

Additional observations from a re-analysis of the deposited data

Results flagged for a closer look

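Each of the 9 probe sets was looked at in each of the 29 groups of 4 animals. Of these 261 looks, which reuse the same animals and count Fth1 by both its probe sets, 11 found an animal set apart from the other 3 by more than Dixon's critical value, over 6 of the genes. Chance alone does so in about 1 look in 20. In Long Evans, Tfrc was at 9.492 in female control 4, where the others lay at 9.649 to 9.662. Slc11a2 was at 9.334 in Long Evans male perinatal 750 ppm animal 2 (others 9.376 to 9.384) and at 9.231 in Long Evans female perinatal 750 ppm animal 1 (others 9.341 to 9.359). It was at 9.398 in Sprague Dawley male perinatal 250 ppm animal 3 (others 9.502 to 9.515).

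Slc40a1 was at 8.171 in Fischer female control 1 (others 8.377 to 8.401) and at 8.166 in Sprague Dawley female perinatal 750 ppm animal 2 (others 7.903 to 7.931). Fth1 probe set 10713825 was at 12.935 in Sprague Dawley male postnatal 250 ppm animal 4 (others 12.985 to 12.994) and at 12.996 in Sprague Dawley female postnatal 750 ppm animal 4 (others 12.965 to 12.967), whose array went against its sex label. Ireb2 was at 9.124 in Fischer female perinatal 250 ppm animal 2 (others 9.199 to 9.211) and at 9.263 in Sprague Dawley male postnatal 250 ppm animal 1 (others 9.311 to 9.318). Aco1 was at 9.746 in Sprague Dawley male postnatal 750 ppm animal 1 (others 9.856 to 9.873).

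The difference between upper and lower label numbers was larger in Fischer than in another strain by limma's interaction test. Against Long Evans the excess was 0.307 for Tfrc, 0.245 for Tf, 0.284 for Slc11a2, 0.197 for Slc40a1, 0.114 for each Fth1 probe set, 0.176 for Ireb2 and 0.111 for Aco1. Against Sprague Dawley it was 0.402 for Tfrc, 0.174 for Tf, 0.241 for Slc11a2, 0.195 for Slc40a1, 0.109 and 0.104 for Fth1, and 0.181 for Ireb2.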

How the results depend on the processing

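No alternative called an iron gene in a lead, dose or period contrast. Signal over background is not in the values used here. The mean lead effects near 0 changed sign. In Fischer, Slc11a2 was 0.003 after a further quantile normalization, and Tfrc -0.01 and Slc40a1 -0.023 with array weights. In Long Evans, Slc40a1 was -0.011 after quantile normalization, and Tf -0.002 and Slc40a1 -0.064 with the sex-mismatched Long Evans arrays, all controls, left out. In Sprague Dawley, Tf was -0.006 after quantile normalization and -0.017 with the choroid plexus covariate, and Ireb2 -0.018 with the sex-mismatched Sprague Dawley arrays left out. Leaving out 1 animal gave, in Fischer, -0.011 to 0.024 and -0.01 to 0.028 for Fth1, -0.022 to 0.048 for Tfrc, -0.036 to 0.024 for Slc11a2, -0.058 to 0.006 for Ireb2 and -0.035 to 0.039 for Slc40a1. It gave -0.063 to 0.054 for Slc40a1 in Long Evans, and in Sprague Dawley -0.149 to 0.073 for Cp, -0.026 to 0.006 for Slc11a2, -0.014 to 0.022 for Ireb2 and -0.097 to 0.1 for Tf. With the label-number block, 1 probe set was called by sex in Fischer, and the share of all probe sets called in that fit was not recorded. For label numbers, Ireb2 in Long Evans was -0.001 and Fth1 in Sprague Dawley 0.017 and 0.032 after quantile normalization. Leaving out 1 animal gave -0.013 to 0.01 for Ireb2 in Long Evans, and in Sprague Dawley -0.015 to 0.005 for Ireb2, -0.016 to 0.041 for Tf and -0.001 to 0.047 for Slc40a1.

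Long Evans against Fischer called 4 probe sets among lower numbers, where Cp was -0.16, Aco1 0.039, Slc11a2 0.062 and Tf 0.034. Sprague Dawley against Fischer called 3 among upper numbers, where Tfrc was -0.173, Cp 0.051, Slc11a2 -0.031 and Ireb2 -0.027, and Tf was 0.074 among lower numbers. In controls only, Sprague Dawley against Fischer called 1, and Cp was -0.313 for Long Evans against Fischer and -0.039 against Sprague Dawley. Leaving out 1 replicate number from every group gave 2 to 7 calls for Sprague Dawley against Fischer, with -0.043 to 0.099 for Tfrc, -0.191 to 0.007 for Cp and -0.08 to 0.013 for Tf. For Long Evans against Fischer it gave -0.05 to 0.102 for Cp and -0.04 to 0.003 for Aco1. Long Evans against Sprague Dawley kept 7 calls each time. For the lower and upper numbers and for the left-out replicates, the share of all probe sets called was not recorded. These counts therefore cannot be set against the whole array. The cause was not tested. No paired analysis was possible because the labels give the groups no shared replicate numbers.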
